A study of Bos taurus with 19 samples.

Results

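Transforming growth factor β (TGFβ) ligands, their receptors and the latent TGFβ binding proteins were examined in the bovine theca interna, the inner, vascular and androgen-producing layer of the follicle wall. The set was defined by name as TGFB1, TGFB2, TGFB3, TGFBR1, TGFBR2, TGFBR3, LTBP1, LTBP2, LTBP3 and LTBP4, and its members are the probe sets that the array annotation assigns to 1 of these symbols alone. This gave 9 probe sets for 7 of the 10 genes, out of 13317 probe sets with 1 symbol, which stand for 9156 genes, and 24127 probe sets in all. No probe set carried TGFBR3, LTBP3 or LTBP4 as its only symbol, and these genes were not analysed here.

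The data are from 19 single-channel Affymetrix bovine arrays, each hybridised with RNA from the theca interna of 1 follicle of a non-pregnant Bos taurus heifer, after the granulosa cells had been scraped off. There were 4 large healthy follicles of more than 9 mm in diameter, 5 small atretic follicles, in which the follicle is degenerating, and 10 small healthy follicles of 3 to 5 mm. The small healthy follicles had either rounded (n = 5) or columnar (n = 5) granulosa cells next to the basal lamina, and they were the reference for both other groups. The ovaries came from an abattoir, and the labels do not say whether any follicles shared an animal, so a p-value covers the spread among these follicles and no more. By the labels, RNA was made with Trizol and RNeasy columns for large follicles, with a RNAqueous Micro kit for atretic ones and with RNeasy mini kits for small healthy ones, and 0.25 µg was labelled for atretic against 2 to 5 µg for healthy follicles. The study's methods instead describe the same reagents, and a labelled amount unlike that of the labels, for all its thecal samples. The study reported on healthy follicles only, so its methods may not cover the atretic ones. Going by the labels, follicle group and RNA preparation cannot be told apart. The dissected tissue holds several cell types, and fewer cells of a type and less RNA per cell cannot be told apart.

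TGFβ ligands are secreted bound to their own propeptide, and most of this latent complex is coupled to a latent TGFβ binding protein, through which it is held in fibrillin- and fibronectin-containing matrix. Integrins, thrombospondin and proteases release the ligand, which binds the type II receptor; this recruits and phosphorylates the type I receptor, and SMAD2 and SMAD3 carry the signal to the nucleus. LTBP2 is the member of its family that does not bind latent TGFβ and is known as a fibrillin-associated matrix protein. In the follicle, TGFβ is known to act on steroid production by thecal cells and on their matrix.

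Of 7 listed androgen cell markers 6 were measured, with a mean log2 signal of 8.02 to 9.65 in large, 6.28 to 8.85 in atretic and 7.62 to 9.12 in small healthy follicles. INSL3 read 10 to 12.5 on all 19 arrays, whereas CYP17A1 went down to 3.0 and LHCGR to 2.1. In atretic against small healthy follicles CYP11A1 was lower (-1.31, adjusted p = 0.00529), 1 of the 6, and the list's median difference was -0.38. That count is near the share over all tested probe sets, of which 15.1% were lower at an adjusted p under 0.05. Of the 8 granulosa markers, AMH, INHA, INHBA, FST and HSD17B1 exceeded 3 on all 19 arrays, FSHR on none and aromatase, CYP19A1, on 4, with large replicate 2 and columnar replicate 1 the highest of their groups. Of 7 tested in large against small healthy follicles, NR5A2 was higher (0.90) and AMH lower (-0.66). Of all tested probe sets 2.59% were higher and 0.983% lower there at an adjusted p under 0.05. NR5A2 was tested only because enough large arrays exceeded 3. Of 5 granulosa markers tested in atretic against small healthy follicles, INHBA (-1.47) and AMH (-0.97) were lower, as were 15.1% of all tested probe sets. The mean log2 signal of 8 leukocyte markers was 4.46 to 5.28 in large, 4.81 to 6.09 in atretic and 3.65 to 4.74 in small healthy follicles. For 7 endothelial markers it was 5.33 to 6.0, 5.11 to 6.07 and 4.79 to 5.37 in the same order of groups, and for 8 smooth muscle and pericyte markers 7.14 to 8.07, 6.58 to 7.62 and 6.41 to 7.47. Poly-A control transcripts, added to the RNA, read 5.17 to 5.75 in large, 4.13 to 4.75 in atretic and 3.9 to 4.5 in small healthy follicles. Arrays of a group correlated at 0.969 to 0.992 over all probe sets.

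In large follicles, LTBP1, LTBP2 and the ligand TGFB3 were higher than in small healthy follicles. In atretic follicles, TGFB3 and the receptor TGFBR2 were higher by less than 2-fold. Rounded and columnar follicles gave no member that passed. Tests were run on probe sets whose log2 signal exceeded 3 on 50% or more of the arrays in any 1 group. A probe set passed at a limma p under 0.05 after Benjamini-Hochberg adjustment, which was made over the whole array and not over the members. Between large and small healthy follicles 4 of the 7 tested member probe sets passed, all higher in large follicles, whereas 3.58% of all 15570 tested probe sets passed and 2.59% passed as higher. A difference of at least 2-fold was reached by 3 of them, compared with 0.706% of all tested probe sets, 0.629% in the higher direction. Both LTBP2 probe sets and TGFB1 were tested here only because enough large arrays exceeded a log2 signal of 3, so that the share of members passing is a description. All 4 that passed lay on every large array above every small healthy array, as 1.09% of tested probe sets did.

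**Figure D1:**
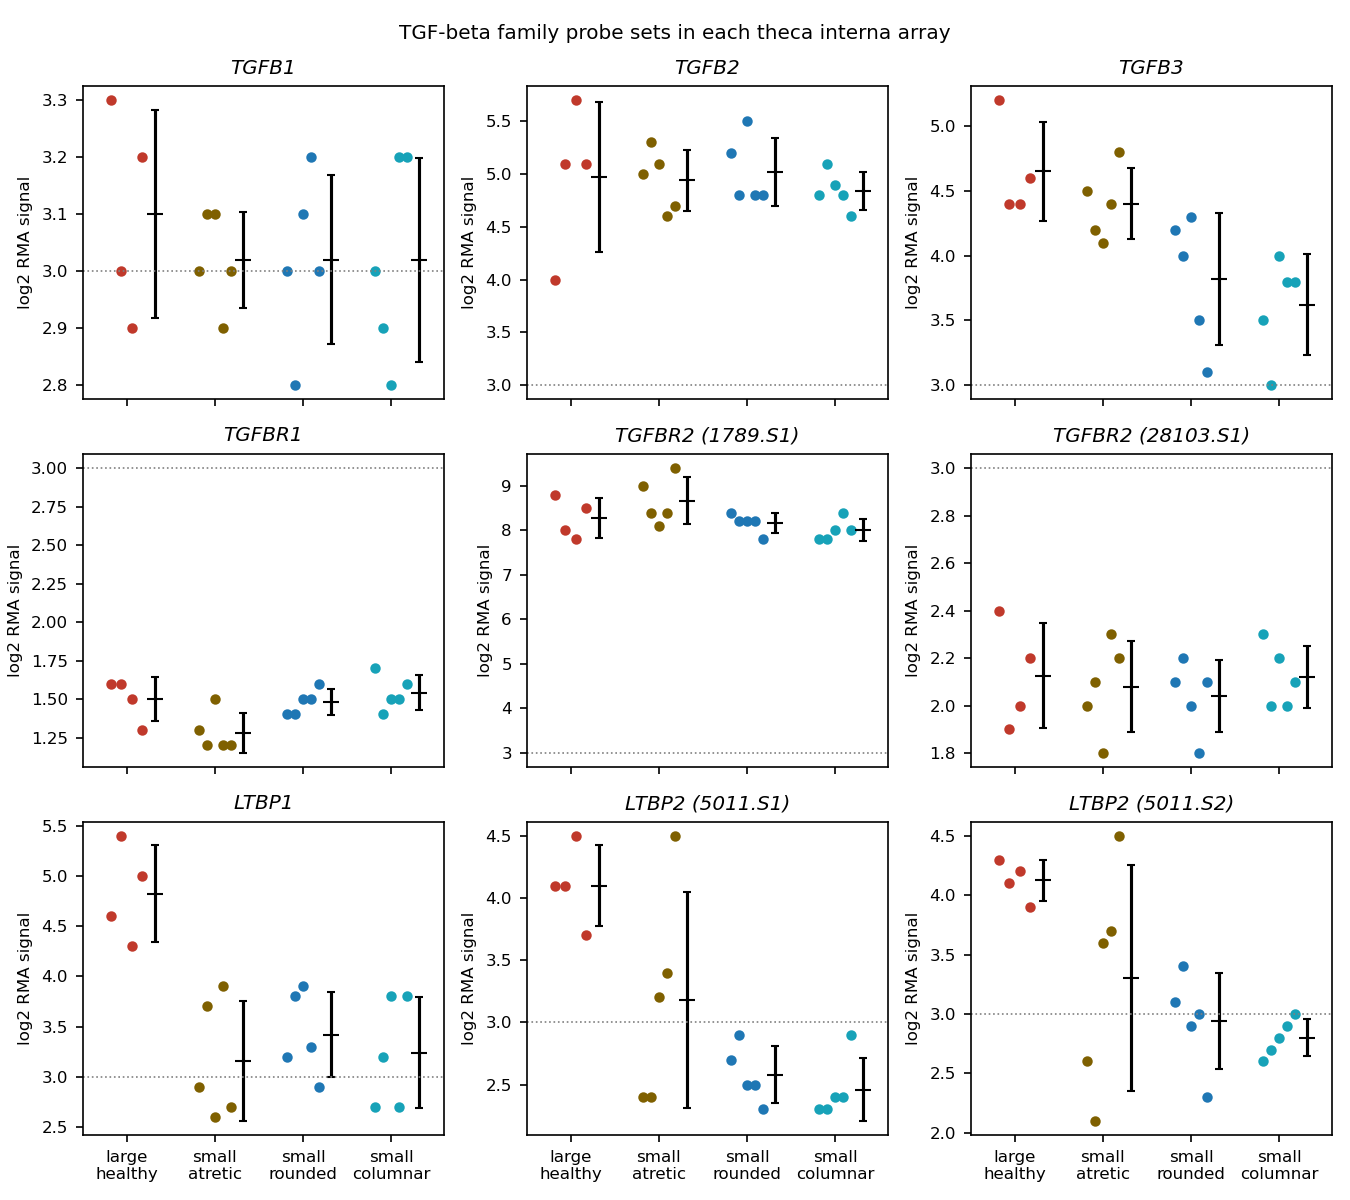
Log2 RMA signal (vertical axis) of the 9 probe sets in each array, by follicle group, with the mean and SD of the group in black and a dotted line at 3. The large arrays stand above all others for LTBP1, the atretic arrays spread widely for LTBP2, and TGFBR1 and the second TGFBR2 probe set stay below the line on all 19 arrays.

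LTBP1 is a covalent carrier of latent TGFβ and places it in the matrix. Its log2 signals were 4.6, 5.4, 4.3 and 5.0 in large follicles, against a lowest of 2.7, a median of 3.25 and a highest of 3.9 in the 10 small healthy ones. The groups did not overlap. The difference was 1.5 (2.82-fold, SE 0.25, 95% interval 0.95 to 2.04), with a limma adjusted p of 0.00773. In atretic follicles the signals were 2.9, 3.7, 2.6, 3.9 and 2.7, within the small healthy range but for 1 array just under it. Their difference from small healthy follicles was -0.17 (95% interval -0.71 to 0.37, adjusted p = 0.626). The study also listed a second LTBP1 probe set as higher in large follicles, which is not among the members here.

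The group means of LTBP1 were ordered as large 4.82 ± 0.48, rounded 3.42 ± 0.42, columnar 3.24 ± 0.55 and atretic 3.16 ± 0.60 (SD), and the last 3 lay within each other's spread. All 5 atretic arrays were below all 4 large arrays, as were 1.36% of probe sets in that comparison. LTBP1 was tested between these groups only because enough large arrays exceeded a log2 signal of 3, so this separation and its direct test are descriptions. Set directly against large follicles, atretic ones differed by -1.66 (95% interval -2.38 to -0.95), with an unadjusted limma p of 0.000416 that did not pass after adjustment (0.138). In 1 fit of all 19 arrays, the adjusted p of this difference was 0.0369. The large against small difference in LTBP1 lost its call against rounded follicles alone (1.41, adjusted p = 0.0878).

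LTBP2 was read by 2 probe sets. The brighter, with the suffix S2_at, had log2 signals of 4.3, 4.1, 4.2 and 3.9 in large follicles and of 2.3, 2.9 and 3.4 at the lowest, the median and the highest of the small healthy ones. The dimmer, with the suffix S1_at, had 4.1, 4.1, 4.5 and 3.7 in large follicles, with 2.3, 2.45 and 2.9 at the same points of the small healthy group. For both, the large follicles lay apart from the small ones. The differences were 1.25 (2.39-fold, SE 0.15, adjusted p = 0.000911) for the brighter and 1.58 (2.99-fold, SE 0.15, adjusted p = 0.000139) for the other, which had the second smallest p of all 15570 probe sets. The small healthy means, 2.87 ± 0.30 and 2.52 ± 0.23, were below 3, where this summary compresses differences, so the fold changes carry more uncertainty than their SE. Against rounded follicles alone the brighter probe set differed by 1.19, with an adjusted p of 0.0682.

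Markers of matrix-producing cells were also compared between large and small healthy follicles, where 2.59% of all tested probe sets passed as higher. Of 7 fibroblast markers 3 passed as higher, the microfibril protein MFAP5 (1.98, adjusted p = 0.0243), COL1A1 (0.76) and COL1A2 (0.39), at a median of 0.29 over the list. The others ran from -0.31 for LUM to 0.29 for PDGFRA, and DCN was at -0.05. The summed linear signal of the 7 was 11100 to 12700 in large, 9620 to 11900 in atretic and 8940 to 11600 in small healthy follicles. Of 8 smooth muscle and pericyte markers 1 passed, DES (1.25, adjusted p = 0.0187), at a median of 0.68 over the list. The others ran from -0.24 for PDGFRB to 0.87 for CNN1. The summed linear signal of these 8 was 3280 to 5980 in large, 1710 to 4700 in atretic and 1700 to 5000 in small healthy follicles, with overlap. An unadjusted limma p under 0.05 was reached by 5 of these 8 and by 4 of the 7 fibroblast markers, against 24.4% of all tested probe sets. The poly-A controls did not overlap between large and small healthy arrays. The part of these cells and of the RNA preparation in the LTBP results was not tested.

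The atretic follicles were uneven in LTBP2. The brighter probe set had 2.6, 2.1, 3.6, 3.7 and 4.5 in replicates 1 to 5, and the other had 2.4, 2.4, 3.2, 3.4 and 4.5. By both, 3 arrays were above every small healthy array and the other 2 were within or below the small healthy range. The SD in atretic follicles was 0.95 and 0.87, against 0.30 and 0.23 in small healthy ones. Both probe sets were tested here only because 3 of 5 atretic arrays exceeded a log2 signal of 3. Neither difference from small healthy follicles passed, at 0.43 (95% interval -0.18 to 1.04, adjusted p = 0.257) and 0.66 (0.11 to 1.21, adjusted p = 0.061). Without atretic replicate 2 both passed, at 0.73 (adjusted p = 0.046) and 0.86 (adjusted p = 0.028), and without replicate 1 the dimmer probe set did, at 0.86 (adjusted p = 0.0317).

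Cell type markers also differed among the atretic arrays. The smooth muscle and pericyte mean was 7.04, 6.58, 6.91, 7.44 and 7.62 in replicates 1 to 5, lowest and highest on the same arrays as the brighter LTBP2 probe set, and the androgen cell mean was 8.5, 8.4, 8.85, 7.53 and 6.28, lowest on the array highest in LTBP2. The endothelial mean was 5.29, 5.11, 5.27, 5.23 and 6.07, also lowest and highest on the same arrays as the brighter LTBP2 probe set. The fibroblast mean was 9.46, 9.16, 9.36, 9.76 and 9.69, and the leukocyte mean 5.81, 5.09, 4.81, 6.09 and 6.02. The part of any of these cells in the LTBP2 signal was not tested. Compared with large follicles, atretic ones differed in LTBP2 by -0.83 (95% interval -1.76 to 0.11) for the brighter probe set and by -0.92 (-1.81 to -0.03) for the other, and neither passed. The order of the brighter probe set's means was large 4.12 ± 0.17, atretic 3.30 ± 0.95, rounded 2.94 ± 0.40 and columnar 2.80 ± 0.16 (SD), where each group overlapped its neighbour.

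**Figure D2:**
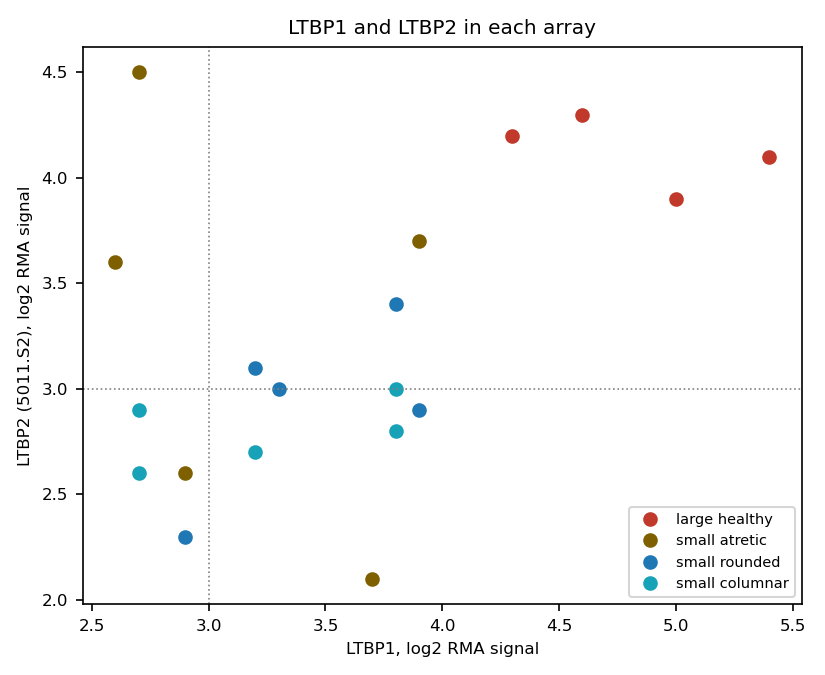
Log2 RMA signal of LTBP1 (horizontal) against the brighter LTBP2 probe set (vertical), 1 point per array, coloured by follicle group, with dotted lines at 3. The large arrays are high in both genes, and the 3 atretic arrays that are high in LTBP2 have LTBP1 signals of 2.6, 3.9 and 2.7, below all large arrays.

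Over the 14 healthy arrays the Pearson correlation of LTBP1 with LTBP2 was 0.84, and it was 0.33 once each group's mean had been subtracted. Over all 19 arrays the values were 0.47 and -0.10. The 2 genes thus shared the step between large and small follicles more than the differences among follicles of a group. The 2 LTBP2 probe sets, which target 1 gene, correlated at 0.95 over 19 arrays and at 0.91 about the group means.

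Among the ligands tested, TGFB3 was the only one with a difference that passed. It is best known for its role in the closure of the palate. Its log2 signals were 5.2, 4.4, 4.4 and 4.6 in large follicles, 4.5, 4.2, 4.1, 4.4 and 4.8 in atretic ones, and 3.0, 3.8 and 4.3 at the lowest, the median and the highest in small healthy ones. All 4 large and 3 of 5 atretic arrays were above every small healthy array. The difference was 0.93 (1.91-fold, SE 0.23, 95% interval 0.44 to 1.42, adjusted p = 0.0396) for large and 0.68 (1.60-fold, SE 0.20, 0.26 to 1.10, adjusted p = 0.0192) for atretic against small healthy follicles. These 2 differences share the same 10 small healthy arrays. Atretic and large follicles themselves differed by -0.25 (95% interval -0.69 to 0.19, adjusted p = 0.516).

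Large replicate 1, the highest in TGFB3, also had the highest endothelial mean among large follicles, 6.0. It was likewise highest among them in the smooth muscle and pericyte (8.07), fibroblast (9.89) and leukocyte (5.28) means. Its androgen cell mean, 8.02, and granulosa mean, 5.38, were the lowest of the large follicles. Of 8 listed endothelial markers 6 were tested between large and small healthy follicles, at a median difference of 0.57. In limma 0 passed, against 3.58% of all tested probe sets. An unadjusted limma p under 0.05 was reached by 5 of the 6, against 24.4% of all. The summed linear signal of the endothelial markers was 482 to 847 in large, 418 to 947 in atretic and 321 to 508 in small healthy follicles. The part of any of these cell types in the TGFB3 result was not tested.

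The TGFB3 result for large follicles sat close to the threshold. It was lost on leaving out any 1 of the 4 large arrays, of rounded replicates 4 and 5, or of columnar replicates 1, 2, 4 and 5, with differences of 0.75 to 1.01 and adjusted p of 0.0516 to 0.114. Without the 2 arrays highest in CYP19A1 it was 0.99 (adjusted p = 0.0932). The order of the means was large 4.65 ± 0.38, atretic 4.40 ± 0.27, rounded 3.82 ± 0.51 and columnar 3.62 ± 0.39, with each neighbouring pair within its spread except atretic and rounded, whose means lay 1 SD or more apart. The atretic result was lost without atretic replicate 5 (0.58, adjusted p = 0.0642) and against rounded follicles alone (0.58, adjusted p = 0.137).

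TGFB2, which unlike the other ligands binds the type II receptor poorly without the co-receptor betaglycan, had log2 signals of 4.0, 5.1, 5.7 and 5.1 in large follicles and of 5.0, 5.3, 5.1, 4.6 and 4.7 in atretic ones. The small healthy follicles ran from 4.6 through a median of 4.8 to 5.5. All groups overlapped, and the large arrays were the most spread. The differences from small healthy follicles were 0.04 (95% interval -0.44 to 0.53) in large and 0.01 (-0.29 to 0.31) in atretic follicles. The signs of both turned under some alternatives.

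TGFB1, the ligand most known from platelets and immune cells, was near the limit of detection, at 2.9 to 3.3 in large, 2.9 to 3.1 in atretic and 2.8 to 3.2 in small healthy follicles. It was tested between large and small healthy follicles, where the difference was 0.08 (95% interval -0.14 to 0.30, adjusted p = 0.647). It did not reach the level for testing between atretic and small healthy follicles. A signal this low gives no measure of the TGFB1 transcript's level.

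TGFBR2 encodes the type II receptor, the constitutively active kinase that binds the ligand first. By its brighter probe set it read 9.0, 8.4, 8.1, 8.4 and 9.4 on the log2 scale in atretic follicles and 7.8, 8.1 and 8.4 at the lowest, the median and the highest of the small healthy ones. Only 2 atretic arrays were above all small healthy arrays. Between atretic and small healthy follicles 2 of the 6 tested member probe sets passed, TGFB3 and this one, and 31.9% of all 15470 tested probe sets did, so that the members' share was near that of the array as a whole. None of them reached 2-fold, as 3.68% of all did. The TGFBR2 difference was 0.58 (1.49-fold, SE 0.18, 95% interval 0.20 to 0.96, adjusted p = 0.0238).

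This TGFBR2 difference was lost without atretic replicate 1 (0.49, adjusted p = 0.0716), without replicate 5 (0.39, adjusted p = 0.0794) and against rounded follicles alone (0.50, adjusted p = 0.179). Atretic replicate 5, the highest array for TGFBR2, TGFB3 and LTBP2 in its group, also had the highest endothelial mean, 6.07, the highest smooth muscle and pericyte mean, 7.62, and the lowest androgen cell mean, 6.28, against 7.53 to 8.85 in the other 4, and the part of these cells in the results was not tested. All 8 measured leukocyte markers, of 9 listed, were higher in atretic than in small healthy follicles (limma adjusted p under 0.05). Of all tested probe sets 16.9% were higher there. The summed linear signal of the leukocyte markers was 365 to 1030 against 152 to 366, and the part of leukocytes was likewise not tested. In large follicles TGFBR2 had 8.8, 8.0, 7.8 and 8.5, which overlapped the small healthy range, and the difference was 0.20 (95% interval -0.17 to 0.56, adjusted p = 0.491). The means ran from atretic 8.66 ± 0.53 through large 8.28 ± 0.46 and rounded 8.16 ± 0.22 to columnar 8.0 ± 0.24, with neighbours within their spread. Atretic and large follicles differed by 0.38 (-0.26 to 1.03), which did not pass.

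The second TGFBR2 probe set stayed between 1.8 and 2.4 on all 19 arrays and the TGFBR1 probe set, for the type I receptor kinase that phosphorylates SMAD2 and SMAD3, between 1.2 and 1.7. Neither exceeded 3 on any array, and neither was tested. For TGFBR2 the other probe set was bright in the same RNA, so a dim probe set does not show that the transcript is missing, and no statement on TGFBR1 can be made.

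Rounded and columnar follicles differed in none of the 7 tested member probe sets, nor in any of 15570 (0% passed in limma, smallest adjusted p 0.996, with 360 or 2.31% at an unadjusted p under 0.05, of which 0 were members; the unmoderated linear model also passed 0). The member differences ran from 0.00 for TGFB1 to 0.20 for TGFB3. TGFB1 and both LTBP2 probe sets were tested here only because enough large arrays, part of the same fit, exceeded a log2 signal of 3. Their signals in small healthy follicles were near the limit of detection, so their small differences say little. The 95% intervals leave room for differences of up to 0.78 in LTBP1 and 0.73 in TGFB3. Atretic against large follicles likewise gave 0% passing of 15326, with 2763 or 18% at an unadjusted p under 0.05, among them LTBP1 and the dimmer LTBP2 probe set. The smallest adjusted p there was 0.126.

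**Figure D3:**
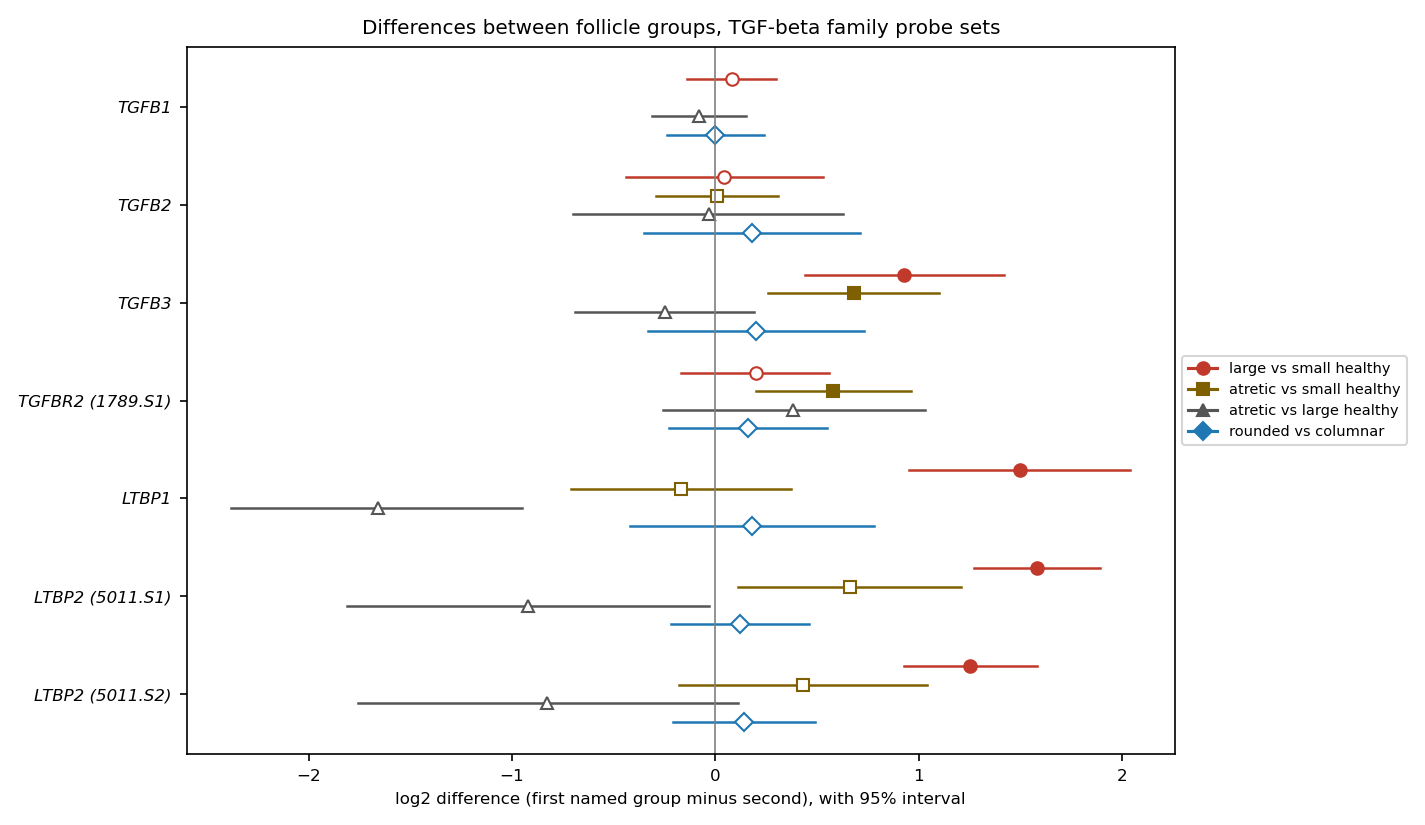
Log2 difference (horizontal) with its 95% interval for the 7 tested member probe sets in 4 comparisons, each as the first named group minus the second. Filled points passed and open points did not. LTBP1 stands at 1.5 in large and at -0.17 in atretic follicles against small healthy ones, while TGFB2 lies near 0 in both.

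The genes around the ligands were followed in 4 lists, with 1 probe set per gene, the brightest. Over all tested probe sets 2.59% passed as higher and 0.983% as lower in large against small healthy follicles. Of 17 intracellular signalling genes 8 were tested, and between large and small healthy follicles 1 was higher and 0 lower, with a median difference of 0.02, against 0.00 over all tested probe sets. PMEPA1, a TGFβ-induced membrane protein that sequesters SMAD2 and SMAD3, was the one that rose, to 4.00 ± 0.32 in large against 3.24 ± 0.24 in small healthy follicles (difference 0.76, SE 0.15, adjusted p = 0.0151). It lost its call without large replicate 3 (0.63, adjusted p = 0.0544), without the 2 arrays highest in CYP19A1 (0.70, adjusted p = 0.0734) and against rounded follicles alone (0.68, adjusted p = 0.254). SMAD2, SMAD3 and the shared partner SMAD4 differed by -0.21, 0.33 and -0.18, and none of the 3 passed.

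Of 19 activators and latent complex partners 13 were tested, of which 1 was higher and 0 lower in large follicles, at a median of -0.04. Over all tested probe sets 2.59% were higher and 0.983% lower. ADAMTSL4, also on the list, was not among the genes tested, and the study reported it as higher in large follicles. Fibronectin, FN1, the matrix protein that LTBP1 is assembled on, was 10.95 ± 0.06 in large against 10.17 ± 0.18 in small healthy follicles. Its lowest large array, at 10.9, was above its highest small one, at 10.4. The difference of 0.78 (SE 0.10, adjusted p = 0.000971) passed in all 26 alternatives. Fibrillin 1, FBN1, differed by 0.31 (adjusted p = 0.108) and thrombospondin 1, THBS1, an activator of latent TGFβ, by 0.66 (adjusted p = 0.148). The 6 co-receptors and TGFβ-binding proteoglycans gave 0 that passed in limma and 1 at an unadjusted p under 0.05, as had 24.4% of all tested probe sets. This was the endothelial type I receptor ACVRL1 (0.40, adjusted p = 0.059).

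Among 21 genes known as TGFβ targets 17 were tested, and 5 were higher and 1 lower in large follicles, at a median of 0.39, where 2.59% of all tested probe sets were higher and 0.983% lower. The study drew IGFBP3, LTBP1 and LTBP2 from these same follicles, so they are no independent evidence. It also measured IGFBP3 and LTBP1 by quantitative RT-PCR and reported a high correlation of fold changes between RT-PCR and arrays over its selected genes. Those RT-PCR data were not examined here. IGFBP3, which binds insulin-like growth factors, was 8.43 ± 0.60 in large and 7.41 ± 0.33 in small healthy follicles (difference 1.02, adjusted p = 0.0269). COL1A1, a chain of type I collagen, differed by 0.76 (adjusted p = 0.0142), and the metalloproteinase inhibitor TIMP1 by 0.56 (adjusted p = 0.0287). ID1, an inhibitor of DNA binding that is better known as a target of bone morphogenetic proteins, went the other way, at 8.10 ± 0.20 in large against 8.65 ± 0.20 in small healthy follicles (-0.55, adjusted p = 0.0246). Chosen after their values were seen, LOX (1.01) and COL1A2 (0.39) were the other members that passed. COL1A1 and COL1A2 are also on the fibroblast list.

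The target count rests on few arrays. It was 0 without the 2 arrays highest in CYP19A1 and 0 against rounded follicles alone. Leaving out large replicate 2 gave 1, large replicate 4 gave 2 and large replicate 3 gave 3. IGFBP3 lost its call without large replicate 2 (0.76, adjusted p = 0.0669). TIMP1 and ID1 lost theirs without large replicate 2, 3 or 4, with adjusted p of 0.0601 to 0.0943, and LOX and COL1A2 passed in 12 and 10 of 26 alternatives.

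In atretic follicles the same target list had 4 higher and 1 lower than in small healthy follicles, at a median of 0.15 against 0.01 over all probe sets. TGFBI, a matrix protein named for its induction by TGFβ, was 6.80 ± 0.51 in atretic and 5.68 ± 0.30 in small healthy follicles (difference 1.12, SE 0.19, adjusted p = 0.00187). TGIF1, a corepressor of SMAD2, was 5.66 ± 0.15 against 4.80 ± 0.44 (0.86, adjusted p = 0.00558), with no overlap between the groups, as in 1.42% of probe sets. The AP-1 subunit JUNB differed by 0.67 (adjusted p = 0.0147) and ID1 by -0.53 (adjusted p = 0.0103). The fifth member that passed, named after its value was seen, was TIMP1 (0.55, adjusted p = 0.0476), which kept its call in 10 of 27 alternatives. The list gave 0 against rounded follicles alone, where TGIF1 differed by 0.54 (adjusted p = 0.0842). Of all tested probe sets 16.9% were higher and 15.1% lower in atretic follicles.

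The other lists had few genes that passed in atretic follicles, where 31.9% of all tested probe sets passed, 16.9% as higher and 15.1% as lower. Of 8 tested signalling genes 0 were higher and 1 lower. This was SMAD5, which transmits bone morphogenetic protein signals, at 3.52 ± 0.25 in atretic and 4.12 ± 0.44 in small healthy follicles (-0.60, adjusted p = 0.0323). Of 13 tested partners the integrin subunit ITGAV was higher (0.59, adjusted p = 0.0212) and ITGB1 lower (-0.22, adjusted p = 0.029). Against rounded follicles alone ITGAV differed by 0.30 (adjusted p = 0.26). SMAD5 lost its call without atretic replicate 1, 3 or 5 or columnar replicate 5 (adjusted p 0.0525 to 0.0855), and ITGB1 without atretic replicate 1, 2, 3 or 5 (0.0521 to 0.0659). Of the co-receptors and proteoglycans 0 of 6 passed in limma, with 2 at an unadjusted p under 0.05, as had 45.2% of all. FN1 differed by 0.13 and PMEPA1 by 0.20 in atretic follicles, and neither passed. None of the 4 lists had a gene that passed between rounded and columnar or between atretic and large follicles.

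**Figure D4:**
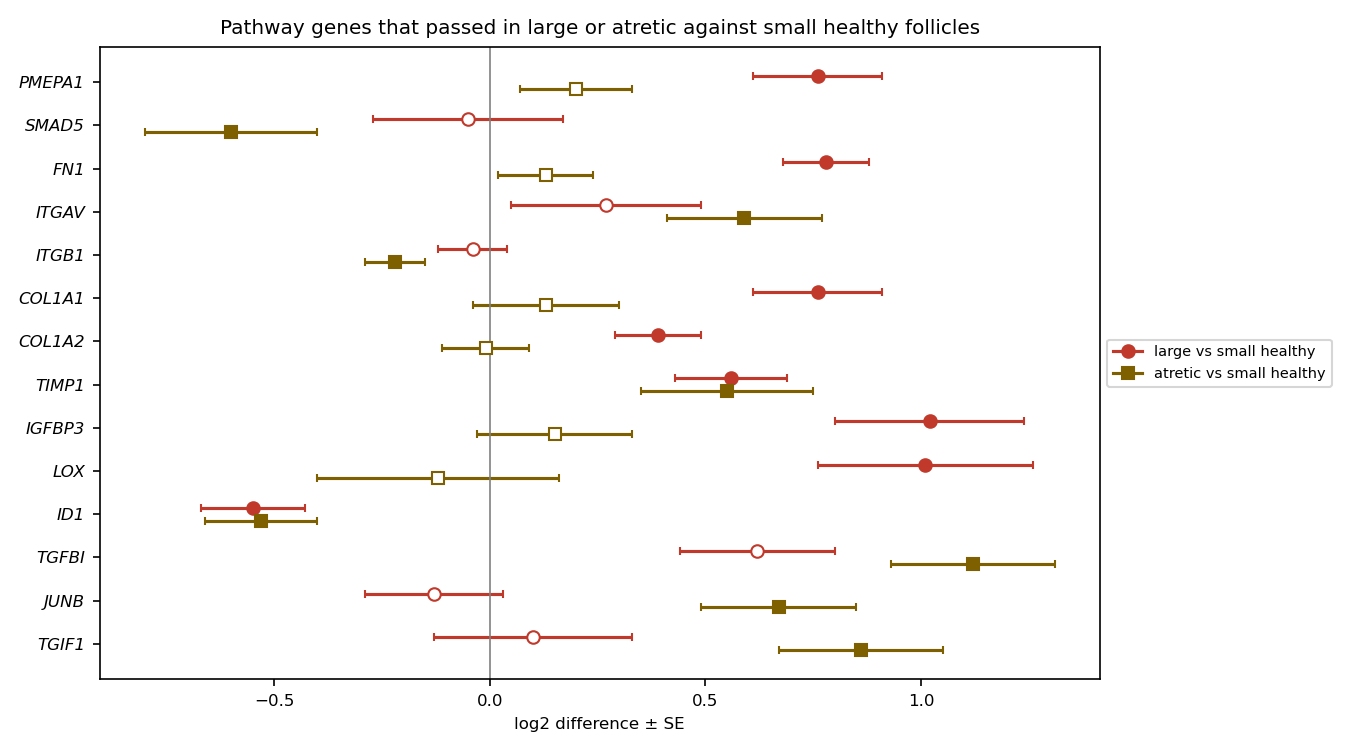
Log2 difference ± SE (horizontal) of the 14 listed pathway genes that passed in large or in atretic against small healthy follicles, both compared with the same 10 arrays. Filled points passed and open points did not. FN1 and COL1A1 lie at 0.78 and 0.76 in large follicles and at 0.13 in atretic ones, while ID1 lies at -0.55 and -0.53.

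Of 7363 other named genes, those most like LTBP1 over the 14 healthy arrays were ENPP1 (Pearson r = 0.92), LIMS2 (0.91), QSOX1 (0.91), RABGAP1L (0.89) and SPARC (0.89). About the group means these values were 0.78, 0.63, 0.74, 0.58 and 0.72. For LTBP2 they were EHBP1L1 (0.95), LMCD1 (0.95), ADCY8 (0.93), CRYAB (0.93) and TMEM106A (0.93), which about the group means gave 0.84, 0.81, 0.80, 0.47 and 0.76. For TGFB3 the nearest genes were CLDN5 (0.91), PDPN (0.91), LGMN (0.90), FLT3LG (0.89) and TBC1D5 (0.89), and these stayed between 0.81 and 0.83 about the group means. Of the genes named for TGFB3 only CLDN5, a tight junction protein of endothelium, was on the endothelial marker list. The part of any cell type in these correlations was not tested. All these values come from the same arrays and were picked as the highest of many, and they are given as descriptions.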

How the data were processed

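RNA of 19 theca interna samples had been hybridised to Affymetrix bovine arrays. The authors deposited log2 signals per probe set, made by RMA with quantile normalization in Partek (version 6.5 in the submitters' processing notes), rounded to 1 decimal. The sources used here do not say whether all arrays were normalized together. Groups and replicate numbers came from the sample labels, and symbols from the platform annotation. From the 24127 probe sets, 111 array controls were left out. Probe sets that exceeded a log2 signal of 3 on 50% or more of a group's arrays were fitted with limma 3.58.1 (lmFit, eBayes) in R 4.3.3, and p-values were adjusted over all of them (Benjamini-Hochberg). Large and atretic follicles were each compared with the 10 small healthy ones, atretic with large, and rounded with columnar in a fit of the 3 healthy groups. Arrays give no read depth, and their small number bounds the precision. Every member was reported. Of each list at most 4 genes that passed were named, by smallest p, and for each member that passed the 5 genes most like it. The members and lists were chosen with earlier results of these data known. RMA compresses low signals. Alternatives were other filters, moderation, weights, normalization, references, a replicate block and leaving out arrays. The limma fit and its adjustment, but not the other steps, were tested on simulated data.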

Additional observations from a re-analysis of the deposited data

Results flagged for a closer look

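One array stood apart within its group in the dimmer LTBP2 probe set (suffix S1_at): columnar replicate 5 had a log2 signal of 2.9, against 2.3 to 2.4 in the other 4 columnar follicles, and the gap was 0.833 of the group's range. This was 1 of 36 pairs of probe set and group examined, and chance gives about 1 in 20 groups. The value is below 3, and in the brighter LTBP2 probe set the same array had 3.0, against 2.6 to 2.9 in the others.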

How the results depend on the processing

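Between large and small healthy follicles 557 probe sets passed. This number was 339 in an unmoderated linear model, 341 with the replicate block, 1078 with array weights, 155 without the 2 arrays highest in CYP19A1, 18 with rounded follicles as the only reference and 258 with columnar ones. Leaving out single arrays gave 158 (without large replicate 4) to 982 (without rounded replicate 1). The 4 member probe sets that passed became 1 against rounded follicles alone and 3 to 4 on leaving out single arrays. The dimmer LTBP2 probe set passed in all 26 alternatives, the brighter one and LTBP1 in 25 each, and TGFB3 in 11. Between atretic and small healthy follicles 4939 probe sets passed, 237 against rounded follicles alone and 2977 (without atretic replicate 5) to 5666 on leaving out arrays. The 2 member probe sets became 0 against rounded follicles alone and 0 (without atretic replicate 5) to 4 (without atretic replicate 2). Between atretic and large follicles 0 passed, but 123 did in 1 fit of all 19 arrays, including 1 member, LTBP1, and 0 to 77 on leaving out arrays, without any member. Between rounded and columnar follicles 0 passed under every alternative run.

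The direction turned only for TGFB2, whose differences were near 0. Between large and small healthy follicles it was 0.04, but -0.01 with the replicate block, -0.01 without the arrays highest in CYP19A1, -0.04 against rounded follicles alone and -0.20 to 0.37 on leaving out arrays. Between atretic and small healthy follicles it was 0.01, but -0.04 when quantile normalized again, -0.07 with arrays centred on their median, -0.08 against rounded follicles alone and -0.08 to 0.10 on leaving out arrays. Between atretic and large follicles it was -0.03, but 0.03 with the replicate block, 0.01 without the arrays highest in CYP19A1 and -0.36 to 0.21 on leaving out arrays. The cause of these changes was not tested.

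Replicate numbers did not pair the arrays: over 27 same-number pairs the correlation of deviations from group means was -0.35 to 0.57, over 0.1 in 10 of them, and in 7 of them the arrays correlated best with their own number. With the replicate block 3 member probe sets passed between large and small healthy follicles, TGFB3 no longer (0.86, adjusted p = 0.0725), and 2 between atretic and small healthy follicles. Signals near 3 limit what can be said of TGFB1, LTBP2 in small follicles, TGFBR1 and the dimmer TGFBR2 probe set.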

Other observations

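Within the 10 small healthy follicles, the level of each member gene was set against that of each other one, as 15 pairs. The highest Pearson correlation was between TGFB3 and TGFBR2, with r = 0.72 (permutation p = 0.0238) and Spearman's rho = 0.68 (permutation p = 0.0382), and r = 0.46 without the 2 arrays farthest from the median. TGFBR2 and LTBP2 gave r = 0.70 (permutation p = 0.0218) and rho = 0.75 (permutation p = 0.0167), and r = 0.81 without such arrays. No pair passed Benjamini-Hochberg adjustment, with a smallest adjusted p of 0.179 for Pearson's r.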
